A study of Danio rerio with 3 samples.

Results

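The genes described here are 9 genes of the endothelial cell-cell junction and of vascular adhesion, chosen by name: cdh5, pecam1, esama, cldn5b, tjp1a, afdna, ctnna1, ctnnb1 and sele. All 9 are among the 19831 genes that the deposited table names by symbol. They were followed in single zebrafish cells to see how much of each gene a cell held, and which of them were found in cells that held myb but no cdh5. The cells were sorted at 36 hours post fertilization from the trunk of embryos that carried spi2:Gal4;UAS:GFP, in which the Gal4 activator under spi2 control switches on GFP, and kdrl:mCherry, in which an endothelial promoter drives the red reporter. Cells of the DP 1 and DP 2 libraries are listed as kdrl+spi2+, with AGM, the aorta-gonad-mesonephros region, as their location. The study took these sorted cells as hemogenic endothelium of the spi2 lineage. Cells of the SP sort (kdrl-spi2+) were not analysed here. Reporter protein can outlast the transcripts that produced it, so a sorted cell need not hold kdrl transcripts.

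Endothelial cells are held together by adherens junctions, in which VE-cadherin (cdh5) binds its counterpart on the next cell and is tied to actin by beta-catenin (ctnnb1), alpha-catenin (ctnna1) and afadin (afdna). Tight junctions lie beside them and contain claudins such as claudin-5 (cldn5b), the scaffold ZO-1 (tjp1a) and immunoglobulin-family proteins such as ESAM (esama), while PECAM-1 (pecam1) gathers along the whole cell border. In the dorsal aorta, hemogenic endothelial cells leave the vessel wall and become blood stem and progenitor cells, losing their contacts with neighbouring endothelial cells. The transcription factor gene myb is used as a marker of those emerging blood cells. E-selectin (sele) is an endothelial receptor that captures leukocytes in mammals.

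Of the 93 cells in the count table, 88 had at least 500 genes and were kept, 53 of DP 1 and 35 of DP 2. The 5 cells removed held 0 counts of the 9 genes. A cell was called cdh5-positive if it held at least 1 cdh5 count, which gave 6 cells of DP 1 and 5 of DP 2. Cells with 0 cdh5 counts and at least 1 myb count numbered 42 in DP 1 and 27 in DP 2, and 8 cells (5 and 3) held neither gene. Total counts per cell had a median of 172326 in cdh5-positive cells and 133071 in cdh5-negative myb-positive cells of DP 1. In DP 2 the medians were 63118 in cdh5-positive cells and 61952 in cdh5-negative myb-positive cells. Levels are given as CPM, counts scaled to a common total of 1000000 within each cell, or within the summed cells of a class. Since no transcript length is used, levels are not compared between genes. The labels do not say that DP 1 and DP 2 came from separate groups of embryos. With the library as a block, a p-value here measures a difference against how unevenly the classes differ between the libraries. The cells with neither gene enter that spread too, and the test borrows information on the spread from the other genes tested. That spread may be technical.

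The classes were checked against 28 endothelial marker genes, none of them among the 9. In DP 1 a cdh5-positive cell held a median of 14 of these markers, against 3 in a cdh5-negative myb-positive cell. In DP 2 the medians were 11 markers in cdh5-positive cells and 3 in cdh5-negative myb-positive cells. The check did not hold for every cdh5-positive cell, since DP 1 cell 51 held 3 markers and DP 1 cell 55 held 1. Nor were the cdh5-positive cells free of blood genes: 9 of the 11 also held myb, and 10 held spi2. Summed neutrophil marker levels moved the other way, at 2700 CPM in cdh5-positive cells and 8796 CPM in cdh5-negative myb-positive cells of DP 1, and at 449 CPM and 6072 CPM for the same classes in DP 2. Single cells differed less. In DP 1 the medians per cell were 1075 CPM and 6.5 markers in cdh5-positive cells, against 1184 CPM and 7 markers in cdh5-negative myb-positive cells. In DP 2 they were 349 CPM and 4 markers, against 780 CPM and 6 markers. All 14 neutrophil markers had a count in some kept cell of the cdh5-negative myb-positive class. Values without the cells rich in these markers are given with pecam1 and with the shares. The 12 epithelial markers summed to 1046 CPM in cdh5-positive cells and 44.2 CPM in cdh5-negative myb-positive cells of DP 1, and to 2040 CPM and 309 CPM in DP 2. In cdh5-positive cells 4 of the 12 had counts in each library. The keratin genes krt8 and krt18a.1 made up most of the sum, at 437.5 and 594 CPM in DP 1 and 717 and 1319 CPM in DP 2, and tp63, an epithelial transcription factor gene, was found in 1 of 6 cells (0.945 CPM) and 2 of 5 cells (2.87 CPM). The others were cldni in DP 1 and krt4 in DP 2, while epcam, cdh1, krt5, cyt1, cyt1l, cldne and agr1 were at 0 in both. The part of the epithelial markers in the results was not tested.

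VE-cadherin transcripts were rare among the sorted cells. The gene cdh5 was found in 11.3% of DP 1 cells (6 of 53, exact Clopper-Pearson 95% interval 4.27 to 23.0) and in 14.3% of DP 2 cells (5 of 35, interval 4.81 to 30.3). In DP 1 the positive cells held 1, 4, 12, 16, 17 and 18 counts, and in DP 2 they held 3, 5, 10, 12 and 22. As levels these ran from 5.44 to 377 CPM, with a median of 79.2 CPM, and the ranges of the libraries overlapped. When every cell was thinned at random to 20217 counts, cdh5 was left in 6 of the 10 cdh5-positive cells that were deep enough. Thinning alone thus took cdh5 out of 4 cells in that draw, and the loss depended on the draw. The share of thinned kept cells with cdh5 was 6% in DP 1 and 10.3% in DP 2. With another random draw it was 10% in DP 1 and 13.8% in DP 2. Of the 69 cdh5-negative myb-positive cells, 56 were deep enough that 3 counts would equal less than the median positive level, and 2 were deep enough for the lowest. For counting error only, a count of 0 thus places cdh5 below the median positive level in those 56 cells and below the lowest one in 2. Amplified counts of 1 molecule would make this limit too low.

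**Figure D1:**
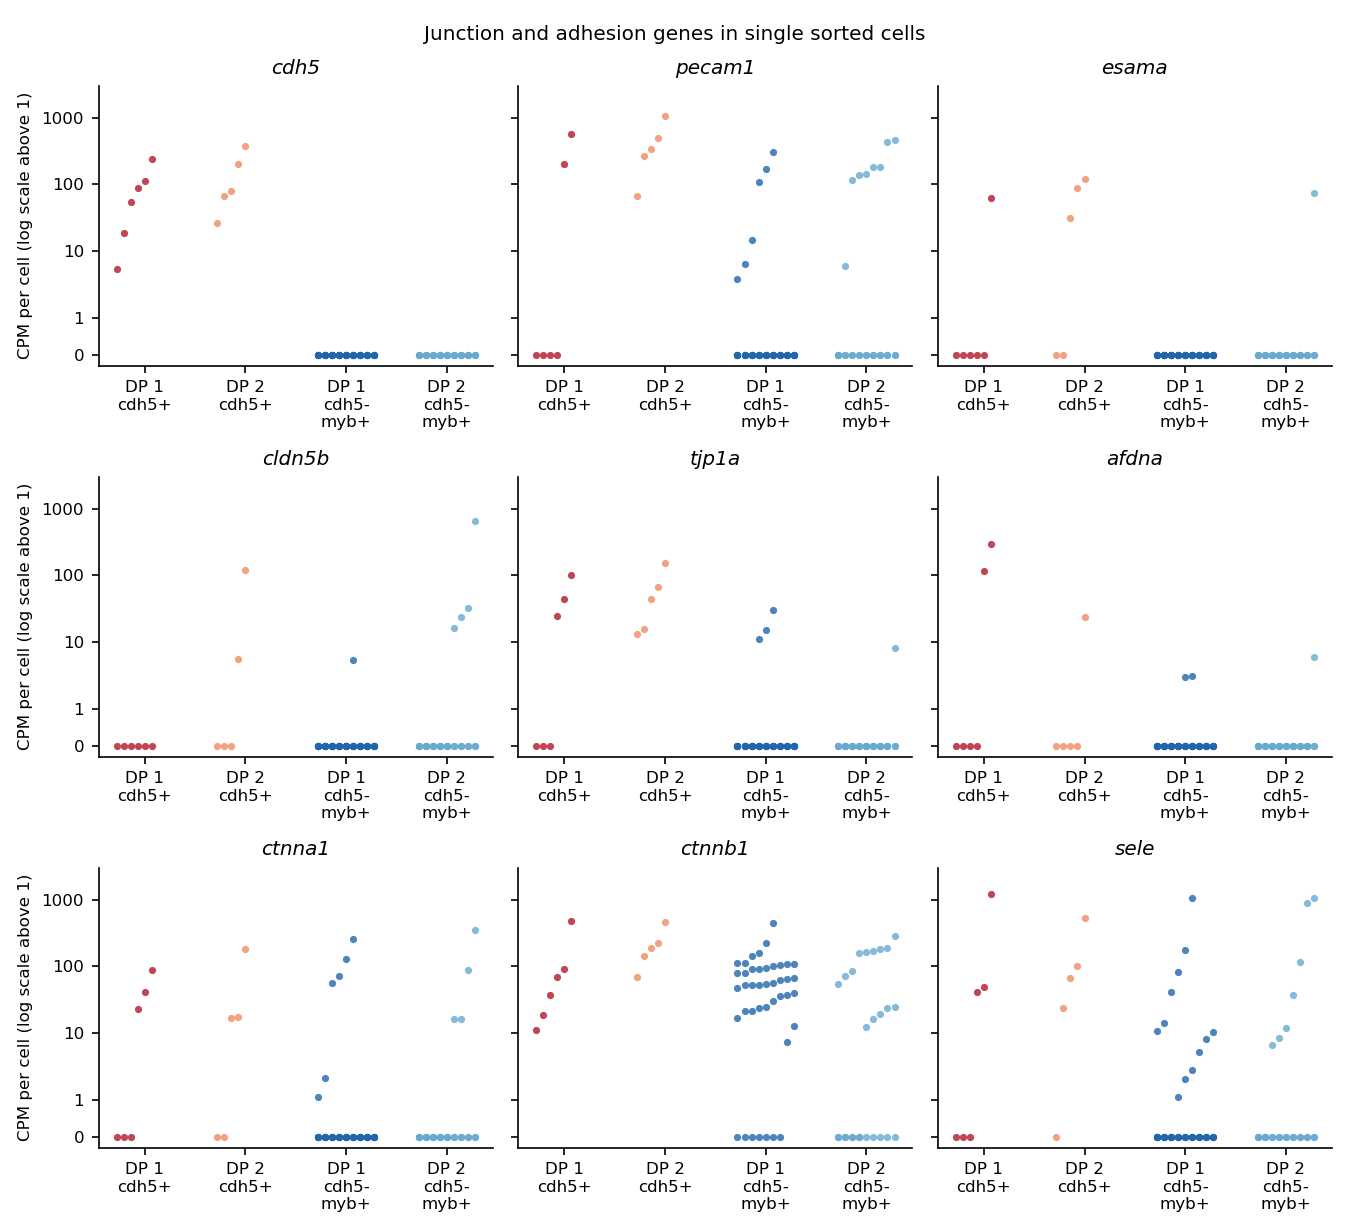
Level of each gene in each cell, in CPM on a scale that is logarithmic above 1, for cdh5-positive and cdh5-negative myb-positive cells of DP 1 and DP 2. Each point is 1 cell, points are spread sideways in order of level, and points at 0 overlie each other. Points above 0 are frequent in all 4 columns for ctnnb1 and scarce in the columns of cdh5-negative cells for esama, tjp1a and afdna.

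The gene most often found without cdh5 was ctnnb1, which encodes beta-catenin, the cadherin-bound protein that is also the transcriptional mediator of Wnt signalling. It was found in 49 of 69 cdh5-negative myb-positive cells (71.0%, interval 58.8 to 81.3), which were 35 of 42 in DP 1 and 14 of 27 in DP 2. Next came sele in 19 of the 69 cells (27.5%, interval 17.5 to 39.6), pecam1 in 14 (20.3%, interval 11.6 to 31.7) and ctnna1 in 10 (14.5%, interval 7.18 to 25.04). The intervals of these last 3 genes overlap, so their order is not settled at this depth. The remaining members were found in few cells: cldn5b in 5 (7.25%, interval 2.40 to 16.1), tjp1a in 4 (5.80%, interval 1.60 to 14.2), afdna in 3 (4.35%, interval 0.906 to 12.2) and esama in 1 (1.45%, interval 0.0367 to 7.81). All these intervals take cells as independent draws pooled over the libraries, and leave out the spread between libraries. For ctnnb1 the libraries differed, at 35 of 42 and 14 of 27 cells. The counts may also not be independent molecules.

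At equal depth ctnnb1 again had the highest share. In cells thinned to 20217 counts, ctnnb1 was found in 35 of 63 cdh5-negative myb-positive cells (55.6%), pecam1 in 9 (14.3%), sele in 7 (11.1%), ctnna1 in 6 (9.52%), cldn5b in 4 (6.35%), tjp1a in 2 (3.17%) and esama in 1. No thinned cell of the class held afdna, and 0 of 63 cells allows a share of up to 4.76%, taken as 3 of 63. The pooled shares hide a difference between the libraries. In DP 1 ctnnb1 was at 67.5% and pecam1 at 7.5%, so in DP 2 ctnnb1 was below its pooled share and pecam1 above it. These numbers are from 1 random draw, and some shares moved with another. In DP 1 cells of the class sele was then at 15% in place of 10% and ctnnb1 at 57.5% in place of 67.5%. There pecam1 stayed at 7.5% and ctnna1 at 10%. In DP 2 cells of the class cldn5b was at 8.7% in place of 17.4%. In the 10 thinned cdh5-positive cells the numbers were 8 for ctnnb1, 6 for pecam1, 4 for sele, 3 each for esama, tjp1a and ctnna1, 2 for afdna and 1 for cldn5b. Before thinning, 11 of the 19 cdh5-negative myb-positive cells with sele held 1 count of it. The 8 cells with neither cdh5 nor myb held pecam1 in 3 cells, ctnnb1 in 3, ctnna1 in 1 and sele in 1 before thinning, and 0 counts of the other members.

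**Figure D2:**
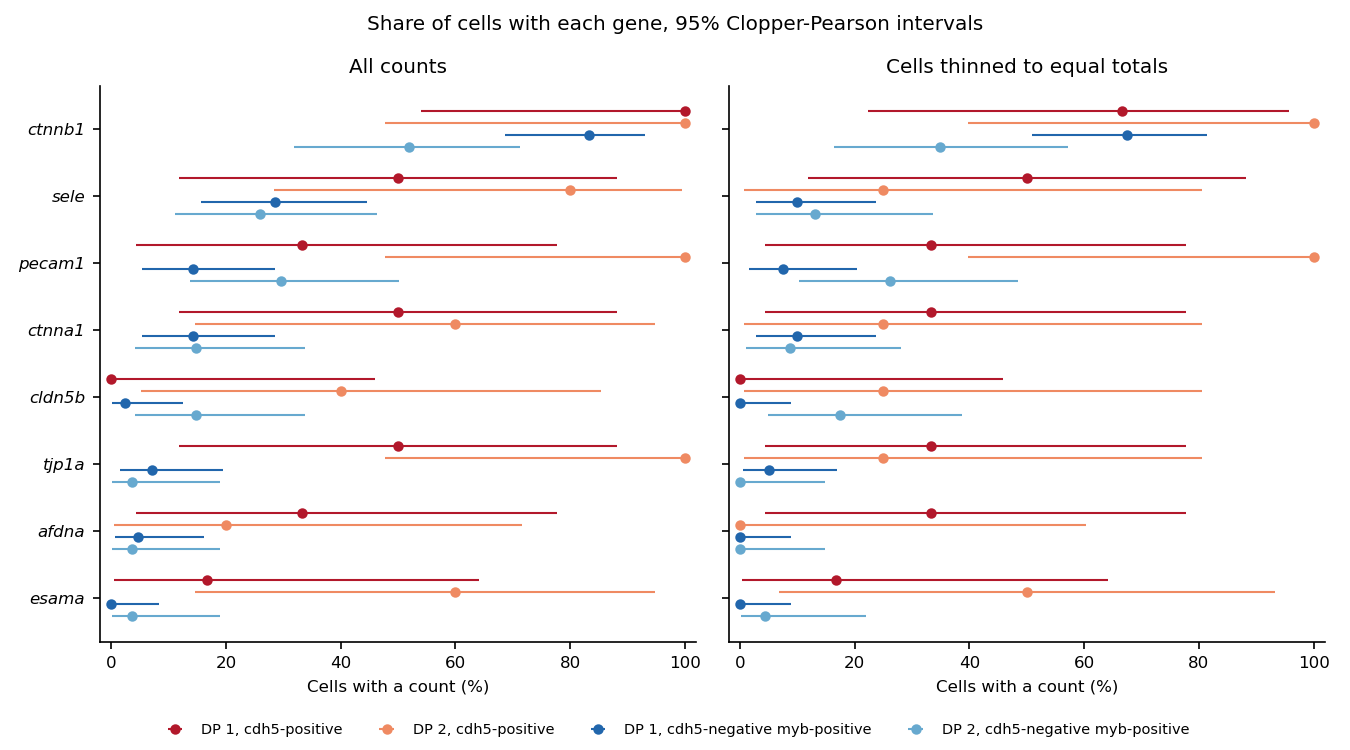
Percentage of cells with at least 1 count of each gene, with exact Clopper-Pearson 95% intervals as bars, for cdh5-positive cells (red, orange) and cdh5-negative myb-positive cells (dark and light blue) of DP 1 and DP 2, from all counts (left) and from cells thinned to 20217 counts (right). The gene ctnnb1 has the highest share in cdh5-negative myb-positive cells of each library in both panels, and the intervals of the small cdh5-positive classes are wide.

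The shares were also set beside those of 7 cells that held at least 12 of the 14 neutrophil markers, a limit set after the values had been seen. These cells are themselves part of the cdh5-negative myb-positive class and deeper than it, with a median total of 324048, so they give no independent background level. In them 0 of 7 held cdh5, pecam1, esama, cldn5b or ctnna1, and at 3 of 7 cells the limit for each is 42.9%. The gene ctnnb1 was found in 6 of the 7 (85.7%), sele in 2 (28.6%), afdna in 2 (28.6%) with 1 count each, and tjp1a in 1 (14.3%) with 5 counts. In the other 62 cells of the class the shares of these 4 genes were no higher, at 69.4% for ctnnb1, 27.4% for sele, 1.61% for afdna and 4.84% for tjp1a. No share of these 4 is therefore read as standing above that of the neutrophil-marker cells at full depth. Thinned to 20217 counts, the 7 cells held ctnnb1 in 4, tjp1a in 1 and sele and afdna in 0.

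The members were then compared between the classes on counts summed per library and class. All 8 members other than cdh5 passed the filter on low counts, and 1 of the 8, pecam1, was called higher in cdh5-positive cells (edgeR quasi-likelihood test, two-sided, Benjamini-Hochberg adjusted p under 0.05). Over all 6160 genes tested 0.341% were called, 0.244% higher and 0.0974% lower. At an unadjusted p under 0.05, 6 of the 8 members were higher and 0 lower, where 10.1% of all genes tested passed and 6.02% were higher. The median log2 fold change of the 8 was 3.22, beside -0.13 over all genes tested. For esama, tjp1a, afdna and ctnna1, which are 4 of those 6, the CPM minimum of the filter was reached in cdh5-positive sums and in 0 of the 2 cdh5-negative myb-positive sums, so that they could be tested only because they were high in cdh5-positive cells. The counts and the median therefore describe the list and support nothing. The fit had 2 residual degrees of freedom, and in both libraries a few cells hold much of a sum: the deepest cell gave 27.6% of the cdh5-positive sum in DP 1 and 54.3% in DP 2.

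**Figure D3:**
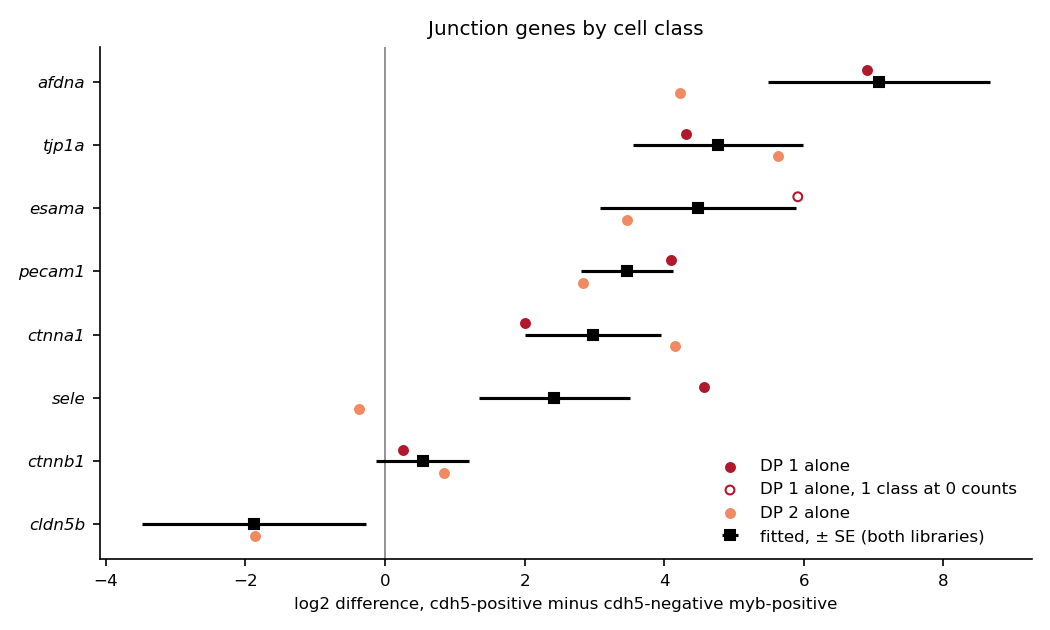
Log2 difference of each gene between summed cdh5-positive and cdh5-negative myb-positive cells, as fitted over both libraries (black squares, bars ± SE) and in each library alone (circles). The open circle is esama in DP 1, where the cdh5-negative sum was 0, so its position depends on the prior count; DP 1 has no circle for cldn5b, with 0 and 1 counts. Of the 8 genes, sele has its DP 1 and DP 2 circles on opposite sides of 0.

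The endothelial border gene pecam1 was the only member called, higher in cdh5-positive cells. In DP 1 it was found in 2 of 6 cdh5-positive cells, at 27 and 169 counts (201 and 578 CPM), and in DP 2 in 5 of 5, at 1, 29, 49, 67 and 127 counts (66.3, 497, 269, 1060 and 335 CPM). Among cdh5-negative myb-positive cells it was found in 6 of 42 in DP 1, with 1, 1, 1, 10, 18 and 42 counts, and in 8 of 27 in DP 2, with 1, 1, 5, 5, 12, 15, 21 and 53 counts. The levels overlapped between the classes, since the highest cdh5-negative cells reached 311 CPM in DP 1 and 465 CPM in DP 2. Summed over cells, pecam1 stood at 185 CPM in cdh5-positive cells and 9.27 CPM in cdh5-negative myb-positive cells of DP 1, a ratio of 20.0 (95% interval 15.2 to 26.5). The intervals of this and the following ratios cover counting error only: they take each count as an independent molecule and leave out the spread between cells, and leaving out 1 cell moved some ratios well beyond them. In DP 2 it stood at 391 CPM in cdh5-positive cells and 48.1 CPM in cdh5-negative myb-positive cells, a ratio of 8.14 (interval 6.51 to 10.2). The fitted log2 fold change was 3.47 ± 0.66 (SE), with an edgeR adjusted p of 0.0388, and it was positive in 2 of 2 libraries. The direction held under all 14 alternatives run, of which 2 were single libraries without a test, while the call was lost under 8, with adjusted p-values from 0.171 to 0.729. In alternatives added after the data were seen, its log2 fold change was 3.25 without the cells that held at least 12 neutrophil markers (edgeR adjusted p = 0.210) and 1.42 without those that held at least 7 (edgeR adjusted p = 0.729). The latter limit also removed 4 cdh5-positive cells, among them DP 1 cell 50 with its 169 pecam1 counts. It left 3 cdh5-positive and 13 cdh5-negative myb-positive cells in DP 1, and 4 and 15 in DP 2.

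The gene pecam1 did not track cdh5 cell by cell. Of the 11 cdh5-positive cells 4 lacked it, all in DP 1, and among them cells 06 and 17 held 17 and 16 endothelial markers. Cells 06 and 17 also held 10 and 9 of the 14 neutrophil markers, with 216 and 3 counts of the myeloid gene spi1b. Those cells held afdna (25 and 48 counts), tjp1a (22 and 4 counts) and ctnna1 (5 and 14 counts) and 0 counts of pecam1, esama and cldn5b. DP 1 cells 51 and 55, with 3 and 1 endothelial markers, held of the other 8 members only ctnnb1. In the opposite direction, 17 of the 24 pecam1-positive cells held no cdh5, of which 3 were cells with neither cdh5 nor myb, at 6, 16 and 16 counts. Of the 14 myb-positive cells with pecam1 but no cdh5, 12 were deep enough for 3 counts to lie below the median cdh5 level.

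**Figure D4:**
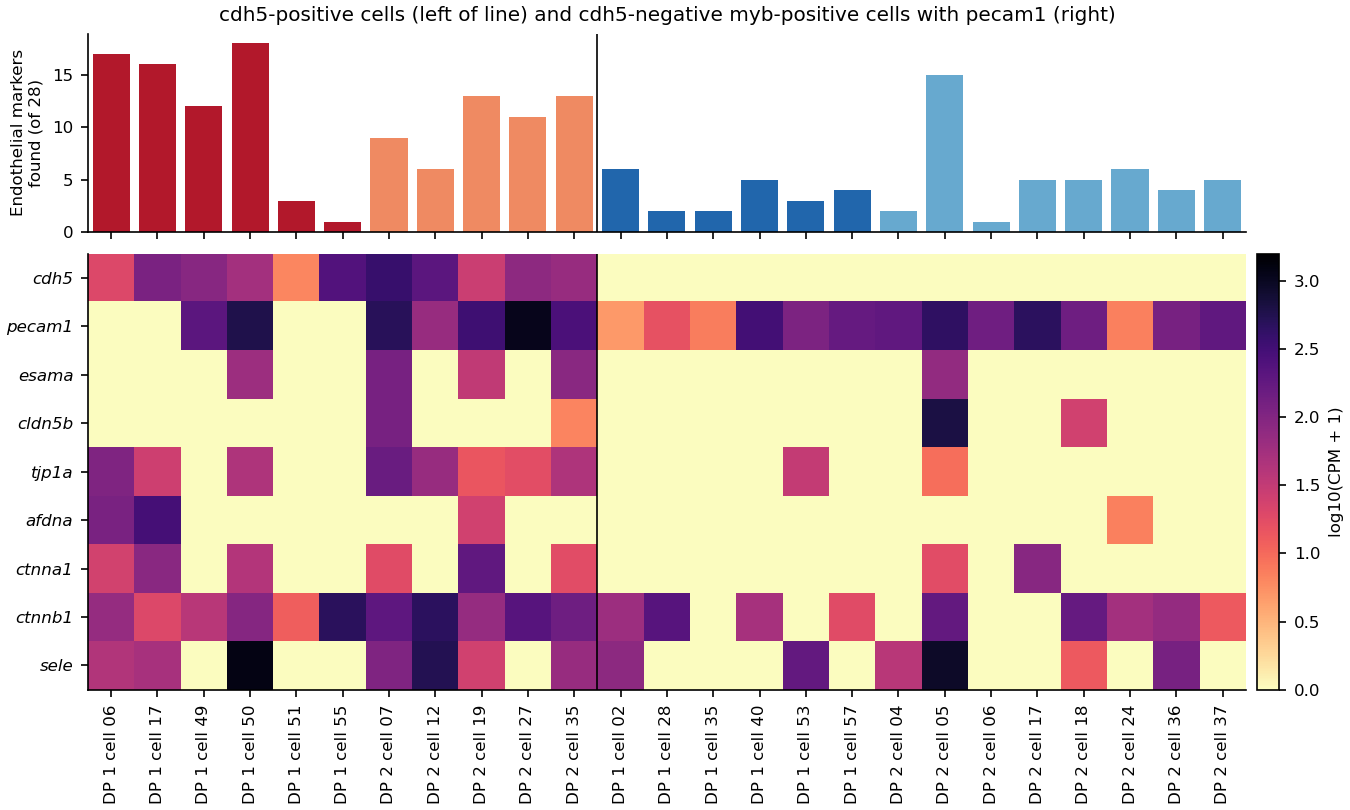
Top, number of the 28 endothelial markers found in each cdh5-positive cell (left of the line) and in each cdh5-negative myb-positive cell with pecam1 (right of the line). Bottom, level of each gene in the same cells as log10(CPM + 1), from pale (0) to dark. Right of the line DP 2 cell 05 stands out with 15 markers and 7 members, while the other 13 cells hold at most 6 markers and at most 4 members.

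Among cdh5-negative myb-positive cells, those with pecam1 held few transcripts of the myeloid transcription factor gene spi1b. In DP 1 the summed spi1b level was 21.4 CPM in the 6 cells with pecam1 and 509 CPM in the 36 without it, and in DP 2 it was 1.74 CPM in the 8 cells with pecam1 and 211 CPM in the 19 without it. Much of the higher level came from the 7 cells with at least 12 neutrophil markers, which all lacked pecam1 and held 3263 of the 3953 spi1b counts of the cells without it. Leaving them out, the cells without pecam1 were at 91.4 CPM in DP 1 (30 cells) and 135 CPM in DP 2 (18 cells). The values of both libraries still rested on few cells. In DP 1, cells 25 and 42 held 245 and 92 of the 470 spi1b counts of those 30 cells. In DP 2, cells 02, 03 and 33 held 75, 60 and 51 of the 220 spi1b counts of those 18 cells. DP 1 cell 02 held 15 of the 18 counts of the DP 1 cells with pecam1, and the DP 2 cells with pecam1 held 1 count. At least 7 neutrophil markers were found in 5 of the 14 cells with pecam1 and in 36 of the 55 without it. The gene is unevenly spread, and was found in 48 of 88 kept cells with a median of 3.5 counts and a maximum of 842. The 14 cells with pecam1 held a median of 4.5 endothelial markers, and the 55 without it held 3. The summed myb level was 309 CPM with pecam1 and 343 CPM without it in DP 1, and 134 CPM with pecam1 and 143 CPM without it in DP 2. Counts of the hemogenic regulator gene gata2b rested on few cells in both libraries. In DP 1 it was at 1.19 CPM with pecam1, from 1 count, and at 5.55 CPM without it, where cell 42 held 38 of the 39 counts. In DP 2 it was at 83.4 CPM with pecam1, where cell 05 held 33 of the 48 counts, and at 3.38 CPM without it. Its direction is therefore not compared between the libraries. The cells were split on pecam1 with these values known, and the sums are descriptions with no test.

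Most esama and cldn5b transcripts of the cdh5-negative myb-positive class came from DP 2 cell 05, which was singled out after its values had been seen. It held 122141 counts, 0 of them cdh5, so that 3 counts would be 24.6 CPM. It held 53 counts of pecam1, 9 of esama, 79 of cldn5b, 1 of tjp1a, 2 of ctnna1, 21 of ctnnb1 and 111 of sele. These were all 9 esama counts of the cdh5-negative myb-positive class, 79 of its 89 cldn5b counts and 111 of its 235 sele counts. The cell also held 11 counts of myb, 11 of kdrl, 7 of runx1 and 33 of gata2b, with 15 endothelial and 4 neutrophil markers. Its number of endothelial markers lay above the range of the other 68 cdh5-negative myb-positive cells, 0 to 9. It also lay within the range of the cdh5-positive cells, 1 to 18. That range overlaps 0 to 9, so lying within it is no sign of likeness.

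ESAM transcripts were found in 5 of the 88 kept cells. The gene esama was found in 1 of 6 cdh5-positive cells of DP 1, with 18 counts, and in 3 of 5 of DP 2, with 7, 12 and 16 counts. It was at 0 in all 42 cdh5-negative myb-positive cells of DP 1 and was found in 1 of 27 in DP 2, cell 05. All 5 esama-positive cells also held pecam1, tjp1a, ctnna1, ctnnb1 and sele. The summed level was 17.0 CPM in cdh5-positive cells of DP 1, all of it from 1 cell, while the summed count in cdh5-negative myb-positive cells was 0. Set against a floor of 3 counts over that sum, the level was at least 44.6-fold higher, and the exact 95% interval of the ratio, for counting error only, began at 32.7. In DP 2 it was 50.2 CPM in cdh5-positive cells and 3.83 CPM in cdh5-negative myb-positive cells. The fitted log2 fold change was 4.49 ± 1.41 and did not pass the test (edgeR adjusted p = 0.215).

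The tight-junction claudin cldn5b was the member whose fitted direction was reversed, at -1.88 ± 1.60 with an edgeR adjusted p of 0.779. It was found in 0 of 6 cdh5-positive cells of DP 1 and in 2 of 5 of DP 2, with 7 and 1 counts. Among cdh5-negative myb-positive cells it was found in 1 of 42 in DP 1, with 1 count, and in 4 of 27 in DP 2, with 2, 2, 5 and 79 counts. The cell with 79 counts decided the direction: over both libraries the ratio of summed levels was 0.523 (interval 0.219 to 1.08) with it and 4.60 (interval 1.58 to 13.0) without it. In DP 1 the classes held 0 and 1 counts, too few for a fold.

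The scaffold genes tjp1a and afdna were found in few cells without cdh5 and at low levels there. The ZO-1 gene tjp1a was found in 3 of 6 cdh5-positive cells of DP 1, with 4, 13 and 22 counts, and in 5 of 5 of DP 2, with 1, 1, 5, 8 and 9 counts. In cdh5-negative myb-positive cells it was found in 3 of 42 in DP 1, with 1, 5 and 5 counts, and in 1 of 27 in DP 2, with 1 count. No cdh5-negative cell exceeded 30.4 CPM, whereas cdh5-positive cells reached 154 CPM. The summed level was 36.9 CPM in cdh5-positive cells and 1.40 CPM in cdh5-negative myb-positive cells of DP 1, a ratio of 26.4 (interval 13.2 to 57.1). In DP 2 it was 34.4 CPM in cdh5-positive cells and 0.426 CPM, from 1 count, in cdh5-negative myb-positive cells, a ratio of 80.9 (interval 13.2 to 3330). The log2 fold change of 4.76 ± 1.22 did not pass the test (edgeR adjusted p = 0.112).

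Afadin had the highest fitted fold change of the 8, but it could be tested only because it was high in cdh5-positive cells. Its rank is therefore a description. The gene afdna was found in 2 of 6 cdh5-positive cells of DP 1, with 25 and 48 counts, and in 1 of 5 of DP 2, with 9 counts. In cdh5-negative myb-positive cells it was found in 2 of 42 in DP 1 and 1 of 27 in DP 2, each with 1 count. All 3 cdh5-positive cells with afdna lay above all cdh5-negative cells, at 23.7, 116 and 298 CPM against at most 5.98 CPM, while the other 8 cdh5-positive cells were at 0. The summed level was 69.0 CPM in cdh5-positive cells and 0.254 CPM in cdh5-negative myb-positive cells of DP 1, and 12.9 CPM and 0.426 CPM in DP 2. The log2 fold change was 7.07 ± 1.59 (edgeR adjusted p = 0.0721). Over both libraries the ratio was 159 (interval 52.6 to 788), and 72.6 (interval 22.8 to 370) without DP 1 cell 17, which held 48 of the 82 counts.

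Alpha-catenin, the actin link, was found as ctnna1 in 3 of 6 cdh5-positive cells of DP 1, with 5, 12 and 14 counts, and in 3 of 5 of DP 2, with 1, 3 and 70 counts. Of the cdh5-negative myb-positive cells, 6 of 42 in DP 1 held it, with 1, 1, 3, 6, 6 and 32 counts, and 4 of 27 in DP 2, with 1, 2, 4 and 5 counts. The levels overlapped, and the highest cell, at 351 CPM from 5 counts, was a cdh5-negative one of DP 2. Summed levels were 29.3 CPM in cdh5-positive cells and 6.22 CPM in cdh5-negative myb-positive cells of DP 1, and 106 CPM and 5.11 CPM in DP 2. The log2 fold change was 2.98 ± 0.97 (edgeR adjusted p = 0.241). Without DP 2 cell 19, which held 70 of the 105 cdh5-positive counts, the ratio over both libraries was 4.26 (interval 2.73 to 6.56) in place of 10.0 (interval 7.24 to 14.0), and with classes set in thinned cells the log2 fold change was -0.056.

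Beta-catenin was found in every cdh5-positive cell. In DP 1 these held 2, 3, 5, 15, 27 and 34 counts of ctnnb1 and in DP 2 they held 7, 11, 14, 26 and 26. The levels ran from 10.9 to 475 CPM in cdh5-positive cells and, in the 49 cdh5-negative myb-positive cells that held it, from 7.30 to 445 CPM with a median of 65.5 CPM. The classes overlapped over nearly their whole range. Summed levels were 81.3 CPM in cdh5-positive cells and 60.0 CPM in cdh5-negative myb-positive cells of DP 1, a ratio of 1.36 (interval 1.06 to 1.71), and 120 CPM and 59.2 CPM in DP 2, a ratio of 2.04 (interval 1.53 to 2.69). The log2 fold change of 0.54 ± 0.67 did not pass the test (edgeR adjusted p = 0.860). That does not show equal levels, only that no difference was called with these libraries.

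E-selectin transcripts were concentrated in single cells of both classes. The gene sele was found in 3 of 6 cdh5-positive cells of DP 1, with 8, 9 and 351 counts, and in 4 of 5 of DP 2, with 6, 8, 9 and 12 counts. In cdh5-negative myb-positive cells it was found in 12 of 42 in DP 1, where 7 cells held 1 count, 2 held 2 and the others 21, 29 and 39. In DP 2 it was found in 7 of 27, where 4 cells held 1 count and the others 5, 15 and 111. The libraries disagreed in direction: the summed level was 348 CPM in cdh5-positive cells and 12.7 CPM in cdh5-negative myb-positive cells of DP 1, but 50.2 CPM and 57.5 CPM in DP 2. The log2 fold change was 2.43 ± 1.08 over both libraries (edgeR adjusted p = 0.455), 4.56 in DP 1 alone and -0.37 in DP 2 alone. DP 1 cell 50 held 351 of the 403 cdh5-positive counts, and without it the ratio over both libraries was 1.55 (interval 1.12 to 2.09) in place of 9.98 (interval 8.48 to 11.8).

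The members were also counted together in each cell. A cdh5-positive cell held a median of 5 of the other 8 members, with a range from 1 to 7, and the medians were 3.5 in DP 1 and 7 in DP 2. A cdh5-negative myb-positive cell held a median of 1, with a range from 0 to 7: of the 69 cells 8 held none, 32 held 1, 19 held 2 and 10 held 3 or more. After thinning the medians were 2.5 in cdh5-positive and 1 in cdh5-negative myb-positive cells. At least 1 of the vascular genes pecam1, esama and cldn5b was found in 7 of 11 cdh5-positive cells and in 17 of 69 cdh5-negative myb-positive cells, and 15 of those 17 held exactly 1 of them.

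Over the 88 kept cells of both libraries together, the level of a member, tjp1a, had the highest correlation with that of cdh5. Pearson's r on log2(CPM + 1) was 0.716, rank 1 of the 7626 genes found in at least 10% of cells. The next were spns2, the gene of a sphingosine-1-phosphate transporter (0.679), the endothelial lectin gene clec14a (0.659), the basement membrane collagen gene col4a2 (0.647) and pawr (0.632). The order did not hold within DP 1, where tjp1a was at 0.463, below clec14a (0.619), spns2 (0.559), col4a2 (0.538) and pawr (0.465). In DP 2 tjp1a was at 0.957, spns2 at 0.792, pawr at 0.756, col4a2 at 0.737 and clec14a at 0.697. Of the other members ranked, pecam1 reached 0.386 (rank 79), sele 0.364 (rank 108), ctnnb1 0.301 (rank 182) and ctnna1 0.289 (rank 202). Most cells were at 0 for most of these genes. Depth also differed between cells of a library, from 15439 to 903548 counts in DP 1 and from 4818 to 379006 in DP 2. The values are therefore descriptions.

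Of 16 listed paralogs and relatives of the 9 genes, 13 were in the table and 5 were tested. EdgeR and DESeq2 called 0 of the 5, which says little where edgeR called 0.341% of all genes tested. At an unadjusted p under 0.05 edgeR had 1 higher, jupa, where 6.02% of all genes tested were higher. The genes jupa and tjp2b were under the CPM minimum of the filter, 11.4, in both cdh5-negative myb-positive sums, so they passed through other sums. The log2 fold changes were 2.62 ± 0.97 for jupa, which encodes plakoglobin, 1.63 ± 0.80 for ctnnb2, 1.17 ± 1.57 for tjp2b, 1.12 ± 1.02 for the p120-catenin gene ctnnd1 and 0.98 ± 1.61 for cldn5a, with edgeR adjusted p-values from 0.341 to 0.890. For jupa and ctnnb2 both libraries had a positive difference. These values are on a scale on which the median of all genes tested was -0.13.

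Of 83 other junction and adhesion genes listed, 65 were in the table and 17 were tested, with 0 called by edgeR and 0 by DESeq2. Over all genes tested edgeR called 0.341%. At an unadjusted p under 0.05 edgeR had 6 higher and 1 lower, where 10.1% of all genes tested passed and 6.02% were higher. The median log2 fold change of the 17 was 1.36. The highest were cldnb at 3.63 ± 1.52, the sialomucin gene podxl at 3.37 ± 0.93, the gap junction connexin gene cx43 at 3.14 ± 1.36, cldn12 at 2.27 ± 0.98 and jam3b, of the junctional adhesion molecule family, at 2.18 ± 0.90. Of these 5, cldnb and cx43 had opposite signs in DP 1 and DP 2, while podxl was at 3.81 and 2.79. In both cdh5-negative myb-positive sums cldnb, cx43 and cldn12 were under the CPM minimum of the filter, so they passed through other sums. The lowest were arhgap29b and rap1b, near 0, rap1aa at -0.30 ± 0.95, selplg at -2.26 ± 1.11 and cldng at -2.75 ± 1.18. The gene selplg encodes the selectin ligand PSGL-1, known from mammalian leukocytes, and its difference was -2.72 in DP 1 and -0.99 in DP 2. The sign was the same in both libraries for 6 of these 17 genes and 2 of the 5 family members. Over all genes tested it was the same for 3440 of 6160, and for 7 of the 8 members. A difference of 0 was counted as not the same, as for tjp2b and cldn5a, at 0 CPM in both DP 1 classes. The 7 members include cldn5b, with 0 and 1 counts in DP 1. They also include esama, tjp1a, afdna and ctnna1, which were tested only because they were high in cdh5-positive cells. These numbers are therefore not compared.

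Calls of cell type markers are given for comparison, beside 0.244% called higher and 0.0974% called lower over all genes tested. Of the 16 tested endothelial markers, 4 were called higher in cdh5-positive cells: flt1 at 8.06 ± 1.52, tie1 at 7.27 ± 1.44, cav1 at 5.65 ± 1.20 and clec14a at 4.94 ± 0.88 (edgeR adjusted p from 0.0388 to 0.0472). In both cdh5-negative myb-positive sums these 4 were under the CPM minimum of the filter, 11.4, at 0.127 to 8.09 CPM. They could thus be tested only because they were high in cdh5-positive cells, and their calls support nothing. The Notch ligand gene dll4 was at 3.78 ± 0.90 (edgeR adjusted p = 0.0810) and kdrl, the gene behind the sort, at 2.70 ± 0.98 (edgeR adjusted p = 0.325). Of the 12 tested neutrophil markers 4 were called lower, npsn, lyz, srgn and nccrp1, the first at -5.71 ± 0.73 (edgeR adjusted p = 0.00255). Without the cells that held at least 12 neutrophil markers edgeR called 0 genes, so these endothelial and neutrophil calls were lost. DESeq2 called 3 of these endothelial and 3 of these neutrophil markers. Of 2 tested epithelial markers, krt18a.1 was called higher at 4.12 ± 0.76 (edgeR adjusted p = 0.0388) and krt8 stood at 3.68 ± 0.85 (edgeR adjusted p = 0.0710). DESeq2 called 0 of these 2. Of 1 macrophage, 2 erythroid, 4 skeletal muscle and 8 hemogenic and blood progenitor genes tested, edgeR and DESeq2 called 0. At an unadjusted p under 0.05 edgeR had 1 hemogenic and blood progenitor gene higher and 2 lower, where 10.1% of all genes tested passed and 6.02% were higher.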

How the data were processed

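Single-cell transcriptomes were made by STRT-seq, a plate-based method, with KAPA Hyper Prep chemistry and 150 bp paired-end reads, per the labels' protocols. Trimmomatic 0.36, HISAT2 2.1.0 and the build GRCz11 are named in the submitters' processing notes without the assay each was used for. The count table deposited by the authors has whole numbers for each gene in each cell, which were used unchanged. How reads were counted and whether duplicates of a molecule were collapsed is not given in the sources used here. Near-identical paralogs may share counts, and no coordinates are given.

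The 9 genes, the other lists and the comparison were chosen with earlier results of these data known. Cells with at least 500 genes were kept, 0 of them with identical counts, and doublets were not called, since cells had been sorted singly. Shares have exact Clopper-Pearson and ratios of summed counts exact conditional 95% intervals. Where 0 cells held a gene, the limit given is the share that 3 cells would make, and a summed count of 0 is bounded at 3 counts. All of these cover counting error only. Intervals of shares take cells as independent draws, and those pooled over the libraries leave out the spread between libraries. For shares at equal depth each cell was thinned to 20217 counts (percentile 10 of the totals), with 79 cells kept and 9 too shallow. Counts were summed per library and class, giving 6 sums, and tested with edgeR 4.0.16 (R 4.3.3) by the quasi-likelihood method with legacy set to false, TMM scaling, filterByExpr and the library as a block, since every class was drawn from each library. The genes cdh5 and myb, which set the classes, were left out of the test. An SE is the size of the log2 fold change over the square root of its F statistic. Library differences used counts scaled by TMM with a prior count of 0.5. Named genes were all members, the 5 highest and 5 lowest fold changes of each list, any gene called there, and the 5 genes closest to cdh5. DESeq2 1.42.0 was an alternative. The fit was also run on simulated sums in which all genes had the same spread. No single cells were simulated, so that run does not cover sums in which a few cells hold most counts.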

Additional observations from a re-analysis of the deposited data

How the results depend on the processing

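Of the 6160 genes tested, 21 were called and 1 of 8 members. With DESeq2 size factors 23 genes were called and with DESeq2 19, each with pecam1 among them. The pecam1 call also held with at least 3 cdh5 counts per positive cell (17 genes called) and with at least 1000 genes per cell (18 genes called). The library block pairs the classes, which come from the same libraries; with no replicate block 1 gene and 0 members were called. The count was 1 gene and 0 members with no filter on low counts and without the deepest cell of each class, and 3 genes and 0 members with classes set in thinned cells. It was 0 genes and 0 members with only the compared classes in the fit, and, in alternatives added after the data were seen, without cells with at least 7 neutrophil markers and without cells with at least 12. Under edgeR's legacy method, also added, it was 6 genes and 0 members. The cause of these losses was not tested. The log2 fold change of pecam1 ran from 1.42 to 3.53 over the settings that lost its call. That of ctnna1 was -0.056 with classes set in thinned cells, and that of sele -1.80 without cells with at least 7 neutrophil markers, where 3 members could be tested. Leaving those cells out also removed DP 1 cell 50, which held 351 of the 403 cdh5-positive sele counts. In single libraries sele was at 4.56 and -0.37, ctnna1 at 2.01 and 4.15, afdna at 6.91 and 4.23, and esama at 5.91 and 3.47, in DP 1 and DP 2. The median of all genes tested was -0.13 with TMM and 0.08 with DESeq2 size factors. Depth limits the shares more in DP 2, where 3 counts in a median kept cell were 51.5 CPM, than in DP 1, where they were 22.3 CPM. The libraries still differed at equal depth. In the draw reported, cdh5-negative myb-positive cells held ctnnb1 more often in DP 1 and pecam1 more often in DP 2.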
